A study of Mus musculus with 36 samples.

Results

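Genes of blood and endothelial development were followed through the conversion of mouse embryonic stem cells (ESCs) into anterior neural progenitor cells (antNPCs): Etv2, Tal1, Lmo2, Runx1, Sox18, Kdr, Flt1, Tek, Cdh5 and Pecam1. These 10 genes were taken by their mouse gene symbol from the 54281 genes of the deposited tables, and all 10 were among the 21601 genes that passed the filter on low counts. RNA-seq was made on polyadenylated RNA of 36 libraries, and the 24 libraries of days 3 to 5 carry the comparisons. Cells grew as a monolayer in serum-free N2B27 medium, with bFGF until day 3 and without it afterwards. All lines came from (B6 x 129S6)F1 ESCs of the Tet1 tm1Koh stock. WT denotes the lines WT7 and WT34 and KO the Tet1 knockout lines KO1 and KO15. They were derived from blastocysts as 2 littermate pairs of KO and WT, and the tests did not use this pairing. There were 4, 2 and 3 libraries of each of these genotypes on days 3, 4 and 5, from experiments 1 and 2. MUT denotes the clones CM59 and CM69, in which genome editing of WT7 had left a TET1 protein without catalytic activity. These clones and the line WT70 belong to experiment 3, with 2 MUT libraries and 1 WT70 library on each of days 3 and 5. Experiments 1, 2 and 3 denote the 3 deposited sets of tables. The labels name no experiment, apart from the word timecourse in the titles of experiment 2. Mock-transfected clones of WT7 were made as controls in the study, and whether WT70 is such a clone is not stated in its labels. A genotype rests on 2 lines at most, so n counts libraries, and p-values measure the spread between libraries of few lines.

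Blood and endothelium arise together from mesoderm that leaves the primitive streak, by way of a progenitor (the hemangioblast, or hemogenic endothelium) that expresses the VEGF receptor KDR. The ETS factor ETV2 switches this programme on, TAL1 and LMO2 act in 1 complex with GATA factors to specify both lineages, and RUNX1 drives the emergence of blood cells from endothelium. FLT1 is a second VEGF receptor that largely acts as a trap for the ligand, TEK (TIE2) is the angiopoietin receptor, SOX18 is a factor of vascular and lymphatic endothelium, and CDH5 (VE-cadherin) and PECAM1 are junction and adhesion proteins of formed vessels. PECAM1 is also a surface protein of undifferentiated mouse ESCs. The genes are best known from blood and vessels, although some, such as Tal1 and Runx1, also act in classes of neurons. The question put to them was how far cells without TET1, or without its catalytic activity, expressed them in medium made for neural induction.

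The start regions of the genes are shown first, because TET1 is an oxidase of methylated cytosine in CpG dinucleotides. Among the genes higher in KO on day 5, the start regions at hand differed widely in CpG content. Start regions of 300 bases (250 before and 50 after the annotated start, RefSeq, build GRCm38.p6) were at hand for 6 of the 10 genes, in 8 windows. The capitals mark letters that transcription factors of this lineage are known to bind, searched on both strands. For ETS factors the letters searched were CCGGAA. For GATA factors either AGATAA counted, or with a different first base TGATAA. For TAL1 complexes the E-box CAGATG was searched, and for RUNX factors TGTGGT. Matches of different groups did not overlap in the windows printed here.
Kdr, chr5:75978406-75978705, minus strand: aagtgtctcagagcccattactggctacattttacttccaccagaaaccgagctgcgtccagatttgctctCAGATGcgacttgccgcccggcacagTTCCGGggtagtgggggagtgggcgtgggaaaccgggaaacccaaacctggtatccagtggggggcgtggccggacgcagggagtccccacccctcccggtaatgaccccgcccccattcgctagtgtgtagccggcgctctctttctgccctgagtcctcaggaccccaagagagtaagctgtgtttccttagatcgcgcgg
Tal1, chr4:115056176-115056475, plus strand: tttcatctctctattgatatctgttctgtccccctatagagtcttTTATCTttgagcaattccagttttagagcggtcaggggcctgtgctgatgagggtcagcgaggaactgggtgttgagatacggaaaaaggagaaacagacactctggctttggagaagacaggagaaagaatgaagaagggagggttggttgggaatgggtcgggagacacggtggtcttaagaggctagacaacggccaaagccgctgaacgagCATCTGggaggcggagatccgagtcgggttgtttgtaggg
Runx1, chr16:92697280-92697579, minus strand: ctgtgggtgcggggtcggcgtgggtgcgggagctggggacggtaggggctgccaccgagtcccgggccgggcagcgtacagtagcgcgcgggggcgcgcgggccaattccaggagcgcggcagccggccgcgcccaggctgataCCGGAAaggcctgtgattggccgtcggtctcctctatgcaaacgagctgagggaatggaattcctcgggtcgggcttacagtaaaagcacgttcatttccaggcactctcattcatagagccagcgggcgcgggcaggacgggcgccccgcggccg
Runx1, chr16:92826025-92826324, minus strand: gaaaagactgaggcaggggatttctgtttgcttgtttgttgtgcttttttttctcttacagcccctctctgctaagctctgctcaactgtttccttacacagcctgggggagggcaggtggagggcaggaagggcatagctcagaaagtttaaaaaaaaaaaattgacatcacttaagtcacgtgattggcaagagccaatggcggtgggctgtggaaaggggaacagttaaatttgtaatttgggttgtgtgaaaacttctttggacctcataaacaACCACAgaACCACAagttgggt
Etv2, chr7:30635803-30636102, minus strand: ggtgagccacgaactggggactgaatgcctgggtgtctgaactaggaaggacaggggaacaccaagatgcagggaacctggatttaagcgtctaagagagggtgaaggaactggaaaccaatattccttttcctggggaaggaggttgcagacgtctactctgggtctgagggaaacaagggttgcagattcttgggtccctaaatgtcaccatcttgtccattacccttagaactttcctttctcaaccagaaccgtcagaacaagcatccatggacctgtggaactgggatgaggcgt

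Kdr held 1 ETS match and 1 E-box match, the printed Tal1 window held 1 GATA and 1 E-box match, and the 2 Runx1 windows held 1 ETS match and 2 RUNX matches. No letters of these groups were found in the windows of Etv2 and Flt1 or in a downstream Tal1 window, and the Tek window held 1 GATA match. Among the 32851 windows of the RefSeq table, 14.9% held the ETS letters, 18.6% the GATA letters, 17.2% the E-box and 16.8% the RUNX letters, so a match is a description of these windows and not a site. CpG dinucleotides numbered 35 and 2 in the 2 Runx1 windows, 29 in Flt1, 19 in Kdr, 11 and 22 in the Tal1 windows, 5 in Etv2 and 3 in Tek, against a median of 7 over all windows.

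The libraries of days 3 to 5 held between 10.1 M and 26.3 M counts. Levels are given in CPM, the count divided by the scaled library size and multiplied by 1e+06, and where genes are compared with each other in TPM, which also divides by transcript length. The Tet1 gene was at 47.2 to 83.1 CPM in the 9 KO libraries of these days and at 108 to 255 CPM in the 9 WT libraries, so the transcript was lower but not absent under the KO label. It was at 158 to 320 CPM in MUT and at 169.5 and 254 CPM in WT70. Of the libraries, WT day 5 replicate 3 (WT7, experiment 2) stood apart from the other 2 WT libraries of that day in several of the genes below, and its values are given beside each result. Without it the same 7 genes passed on day 5 as in all libraries, at larger log2 fold changes for Tal1 (5.32), Kdr (4.70), Lmo2 (2.76) and Flt1 (1.86). In such bulk samples fewer cells of a type and less RNA per cell cannot be told apart.

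On day 5, 7 of the 10 genes were higher in KO than in WT and none was lower. Kdr, Tal1, Lmo2, Etv2, Runx1, Pecam1 and Flt1 passed, while Sox18, Cdh5 and Tek did not. Of all genes tested, 5.95% passed in the higher direction and 11.7% in either direction. The median log2 fold change of the 10 genes was 1.64, against -0.01 over all 21601 genes. To pass, a gene needed a Benjamini-Hochberg adjusted p under 0.05 from edgeR's quasi-likelihood test and at least a doubling or halving (1 on the log2 scale).

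**Figure D1:**
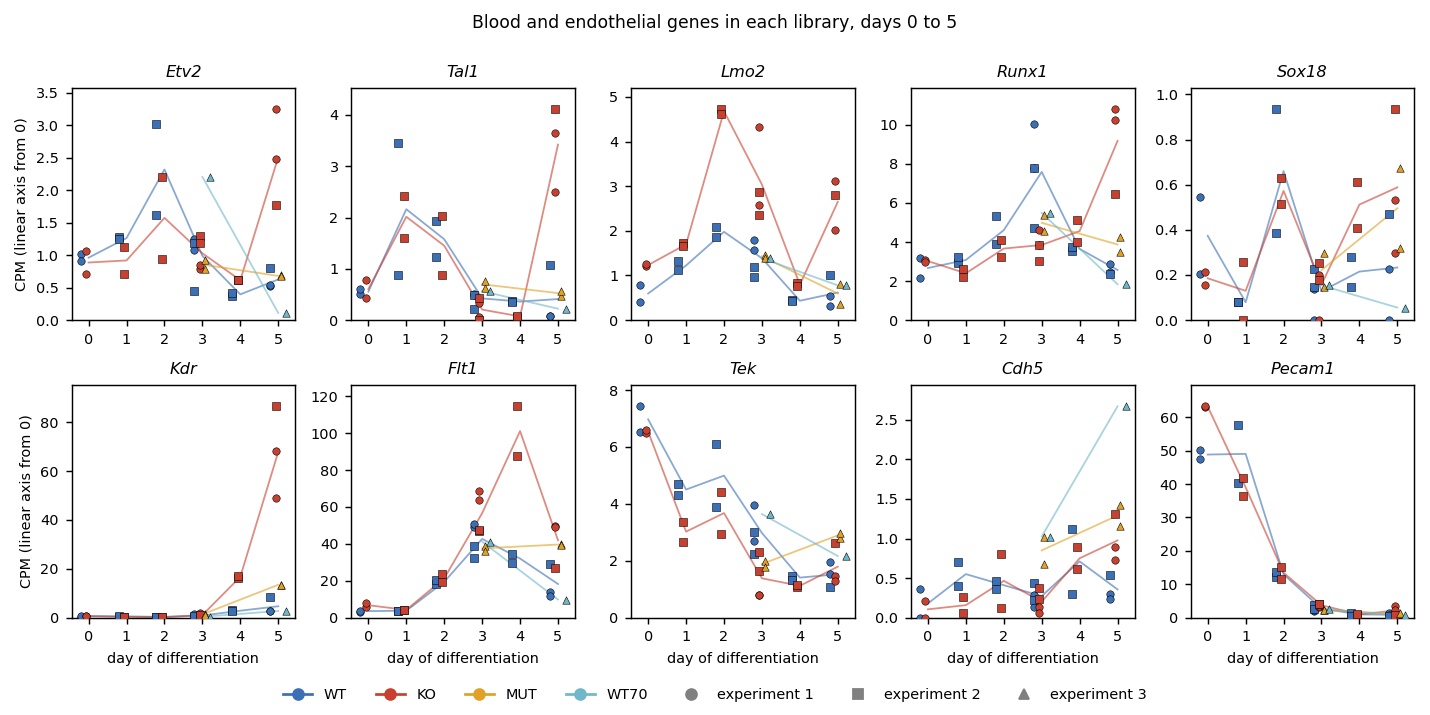
Level of each gene in CPM (linear axis from 0) against the day of differentiation, with 1 point per library, the colour giving the genotype, the marker the experiment and the line the group mean. Kdr rises from day 4 in KO to 48.9 to 86.5 CPM on day 5, and Flt1 is highest on day 4 in KO and on day 3 in WT. The transcription factors Etv2, Tal1 and Runx1 have their highest group means of days 3 to 5 in KO on day 5. The libraries of that group overlap with WT on day 3 for Runx1 and with WT70 on day 3 for Etv2. Pecam1 is higher on days 0 and 1 than on all later days.

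Among the transcription factors, Etv2 was at 3.26, 2.49 and 1.78 CPM in the 3 KO libraries of day 5 (KO1 and KO15 of experiment 1, then KO1 of experiment 2). In WT it was at 0.530, 0.541 and 0.809 CPM (WT7 and WT34 of experiment 1, then WT7 of experiment 2). The groups did not overlap, and all 3 KO libraries lay above every library of WT7 and WT34 on days 3 to 5. The WT70 library of day 3, at 2.21 CPM, lay within the KO range of day 5. The log2 fold change of KO over WT was 1.99 ± 0.39 (SE), with an adjusted p of 0.00023. On day 2, which was not tested, WT was at 1.62 and 3.02 CPM, the latter within the KO range of day 5. KO was at 0.947 and 2.20 CPM on that day.

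Tal1 was at 3.66, 2.49 and 4.12 CPM in KO (55, 42 and 44 counts) and at 0.0757, 0.0773 and 1.08 CPM in WT (1, 1 and 16 counts). Nearly all WT signal thus came from replicate 3, and even this library lay below every KO library. The log2 fold change was 3.13 ± 0.66 (adjusted p 0.000476). On day 1, which was not tested, WT was at 0.877 and 3.45 CPM, the latter within the KO range of day 5. KO was at 1.61 and 2.42 CPM on that day.

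Lmo2, whose product bridges TAL1 and GATA factors, was at 3.12, 2.01 and 2.81 CPM in KO and at 0.530, 0.309 and 1.01 CPM in WT, without overlap. Its log2 fold change was 2.05 ± 0.36 (adjusted p 6.27e-05). Runx1 was at 10.8, 10.2 and 6.46 CPM in KO and at 2.88, 2.47 and 2.36 CPM in WT, so it was the most evenly expressed of the 5 factors in WT. It differed by 1.81 ± 0.21 on the log2 scale (adjusted p 1.71e-07).

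Sox18 did not pass. It was at 0.532, 0.296 and 0.937 CPM in KO (8, 5 and 10 counts) and at 0.227, 0 and 0.472 CPM in WT (3, 0 and 7 counts), and the groups overlapped. The log2 fold change of 1.38 had a 95% interval from -0.24 to 3.01 (adjusted p 0.208). These counts thus allow both no difference and one as large as that of Lmo2, Etv2 or Runx1.

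The receptors did not share 1 pattern. Kdr was at 68.1, 48.9 and 86.5 CPM in KO and at 2.73, 2.86 and 8.57 CPM in WT, where the highest value again belonged to replicate 3. Every KO library lay above every WT library of any day. The mean ratio was 14.4, the log2 fold change 3.86 ± 0.38 and the adjusted p 3.46e-08.

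Flt1 was at 49.8, 49.0 and 27.2 CPM in KO and at 14.1, 11.9 and 28.9 CPM in WT. The groups overlapped, since the WT library of experiment 2 lay just above the KO library of the same experiment. The log2 fold change was 1.13 ± 0.26 (adjusted p 0.00172). This call was lost without WT day 5 replicate 1 (0.91) or replicate 2 (0.83), since the fold then fell under the limit, and in a fit of the 6 libraries alone (1.27, adjusted p 0.149).

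Tek was at 1.46, 1.30 and 2.62 CPM in KO and at 1.97, 1.55 and 1.08 CPM in WT. The order of the genotypes was opposite in the 2 experiments, and the log2 fold change of 0.17 had a 95% interval from -0.55 to 0.88 (adjusted p 0.784).

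Of the genes of formed endothelium, Pecam1 was at 3.46, 2.31 and 0.937 CPM in KO and at 1.44, 0.695 and 0.540 CPM in WT, with the lowest KO library inside the WT range. It passed with 1.39 ± 0.38 (adjusted p 0.00656), and the call was lost without KO day 5 replicate 1 (0.97, adjusted p 0.0806). Cdh5 was at 0.731, 0.888 and 1.31 CPM in KO (11, 15 and 14 counts) and at 0.303, 0.232 and 0.540 CPM in WT (4, 3 and 8 counts). The KO libraries lay above the WT libraries, but at these counts the difference of 1.47 (95% interval 0.15 to 2.79) had an adjusted p of 0.0875 and did not pass.

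Both experiments were also fitted alone for day 5, with experiment 2 holding 1 KO and 1 WT library of that day. In experiment 1 the log2 fold changes were 4.40 for Kdr, 5.19 for Tal1, 2.60 for Lmo2, 2.42 for Etv2, 1.99 for Runx1, 1.94 for Flt1 and 1.42 for Pecam1, and all 7 passed. The fit of experiment 2 compares 1 library with 1 and takes the spread from the other groups of that experiment, so it is no replication. There Kdr (3.33, adjusted p 2.31e-05), Lmo2 (1.47, adjusted p 0.0358) and Runx1 (1.45, adjusted p 0.0304) passed. Tal1 (1.93, adjusted p 0.271), Etv2 (1.13, adjusted p 0.402) and Pecam1 (0.79, adjusted p 0.555) were in the same direction without passing, and Flt1 was at -0.0907 (adjusted p 0.87). On the log2(TPM + 1) scale (limma), which understates folds of genes near 1 TPM, Kdr (2.27) and Lmo2 (1.18) passed. There Etv2 (0.81, adjusted p 0.00021) and Runx1 (0.67, adjusted p 0.000402) fell under the fold limit. Flt1 (0.61) and Pecam1 (0.35) missed both limits. Tal1 was not tested on that scale, since it did not reach 1 TPM in 2 libraries.

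**Figure D2:**
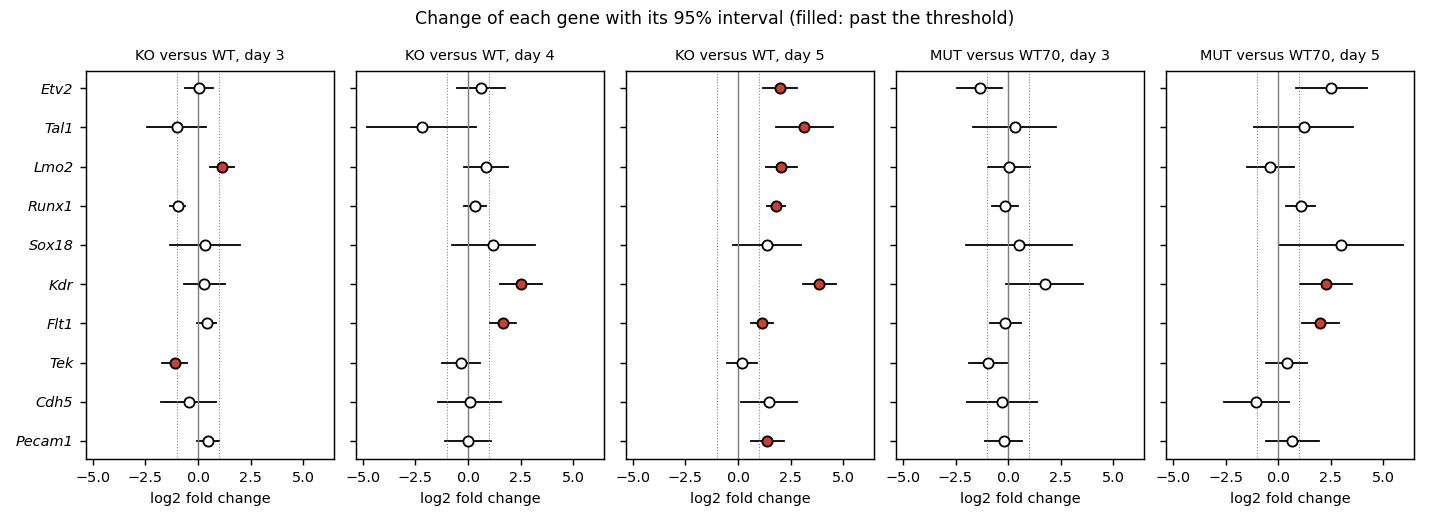
Log2 fold change of each gene (points) with its 95% interval (lines) in the 5 comparisons of genotypes, filled where the gene passed, with dotted lines at the fold limit of 1. For KO on day 5 there are 7 filled points, all to the right, and for MUT on day 5 those of Kdr and Flt1 are filled.

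Per transcript length, Kdr led the 10 genes in KO on day 5, with a mean of 5.90 TPM (range 4.04 to 7.87), followed by Flt1 at 3.63 TPM (2.19 to 4.75) and Lmo2 at 2.48 TPM (1.31 to 3.43), whose ranges overlapped with that of the gene before them. Etv2 (1.34 TPM) and Runx1 (1.09 TPM) followed with overlapping ranges. Pecam1 (0.540 TPM), Tal1 (0.414 TPM) and Tek (0.306 TPM) came next, and Sox18 (0.180 TPM) and Cdh5 (0.125 TPM) were at the bottom. In WT on day 5 Flt1 led at 2.51 TPM, and no other gene of the 10 had a mean above 0.522 TPM, that of Lmo2. Here Flt1 ranged from 0.896 to 5.60 TPM, the latter in replicate 3 and above all 3 KO libraries, a wider spread than on the CPM scale.

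**Figure D3:**
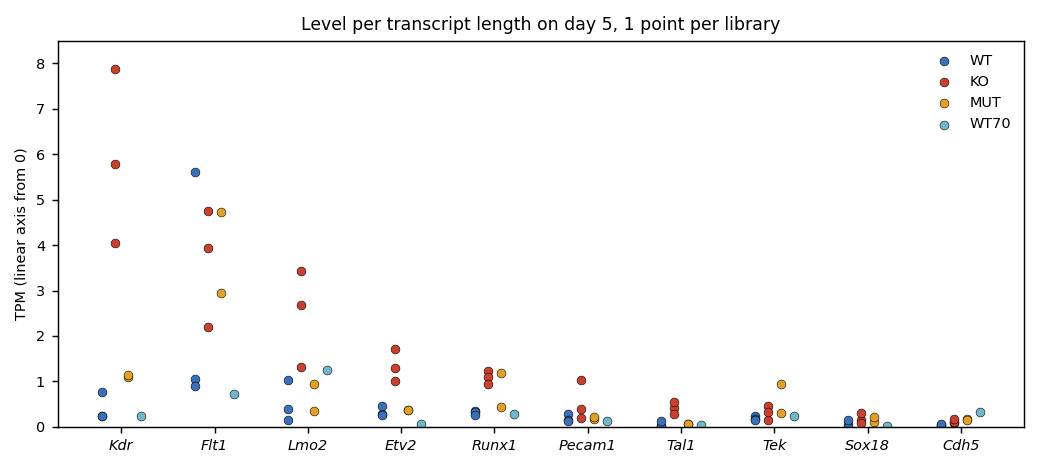
Level per transcript length in TPM (linear axis from 0) of the 10 genes on day 5, ordered by the KO mean, with 1 point per library. Kdr is 4.04 to 7.87 TPM in KO and at most 0.776 TPM in WT. Sox18 and Cdh5 are the lowest in KO, while in WT70 Cdh5 is at 0.320 TPM, above 7 of the 10 genes.

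On day 3, when bFGF was withdrawn, 2 of the 10 genes passed, 1 in each direction, against 3.92% of all genes in either direction. Lmo2 was higher in KO, at 2.58, 4.32, 2.88 and 2.36 CPM (KO1 and KO15 of experiment 1, then of experiment 2) against 1.80, 1.58, 0.976 and 1.18 CPM in WT. All 4 KO libraries lay above all 4 WT libraries, with a log2 fold change of 1.13 ± 0.28 (adjusted p 0.005). The fold fell to 0.92 without KO day 3 replicate 2, and on the log2(TPM + 1) scale the difference was 0.16 (adjusted p 0.831). In edgeR fits of each experiment alone, Lmo2 did not pass in experiment 1 (1.03, adjusted p 0.0911) and passed in experiment 2 (1.28, adjusted p 0.0131).

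Tek was lower in KO, at 0.795, 0.786, 1.64 and 2.32 CPM against 2.71, 3.96, 3.00 and 2.25 CPM in WT. The low KO values were those of experiment 1, and in experiment 2 the groups overlapped. The log2 fold change was -1.11 ± 0.29 (adjusted p 0.00692) over both experiments, -2.06 (adjusted p 0.000199) in experiment 1 and -0.35 (adjusted p 0.641) in experiment 2. Without KO day 3 replicate 1 or 2, or WT day 3 replicate 2, it stood between -0.91 and -0.88 and did not pass.

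Runx1 fell just short of the fold limit on day 3 and did not pass. It was at 4.64, 3.86, 3.05 and 3.84 CPM in KO and at 7.77, 10.1, 4.73 and 7.80 CPM in WT, and the groups did not overlap. Its log2 fold change was -0.97 ± 0.18 (adjusted p 0.000214), the opposite direction to that of day 5.

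The other 7 genes had adjusted p between 0.228 and 0.973 on day 3. Kdr was low in both genotypes, at 0.470 to 1.92 CPM in KO and 0.525 to 1.73 CPM in WT. Flt1 was already present, at 68.6, 64.0, 46.8 and 47.4 CPM in KO and 49.0, 50.7, 32.1 and 39.0 CPM in WT. Within each experiment its KO libraries were above the WT libraries, but the overall difference of 0.41 (95% interval -0.03 to 0.84) had an adjusted p of 0.231.

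On day 4 both VEGF receptors and none of the factors passed. Kdr and Flt1, 2 of the 10 genes, were higher in KO, against 3.39% of all genes in that direction. Kdr was at 16.3 and 17.1 CPM in KO1 and KO15 and at 3.12 and 2.68 CPM in WT7 and WT34, a log2 fold change of 2.53 ± 0.48 (adjusted p 0.000456). Flt1 was at 114 and 87.7 CPM in KO and at 29.6 and 34.5 CPM in WT, a log2 fold change of 1.66 ± 0.30 (adjusted p 0.000419).

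Both genes stood clear of WT in both KO lines, and both calls held with each of the 4 libraries left out. On the log2(TPM + 1) scale the Kdr call was lost, since the difference of 0.95 (adjusted p 0.000401) fell under the fold limit. On the same day Etv2 was at 0.615 and 0.614 CPM in KO, Lmo2 at 0.821 and 0.767 CPM and Runx1 at 5.13 and 3.99 CPM, with adjusted p between 0.3 and 0.547. Tal1 was nearly silent in KO on day 4, with 1 count in each library against 5 counts in each WT library, a ratio of 0.200 with a 95% counting interval of 0.0213 to 0.939 (edgeR adjusted p 0.278).

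Each step between days within KO was compared as well. From day 3 to day 4, 3 of the 10 genes passed, against 11.1% of all genes. Kdr rose by 3.81 ± 0.44 on the log2 scale (adjusted p 4.4e-07), while Lmo2 fell by 1.86 ± 0.40 (adjusted p 0.000791) and Pecam1 by 1.89 ± 0.40 (adjusted p 0.000613). Flt1 rose by 0.97 ± 0.26 (adjusted p 0.00731), just under the fold limit. It passed with the line as a replicate block (1.12, adjusted p 9.18e-06).

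From day 4 to day 5, 5 of the 10 passed in KO, against 7.21% of all genes. Tal1 went from 2 counts over both libraries to 141 counts over 3 libraries, a ratio of 45.8 with a 95% counting interval of 12.4 to 382 (edgeR adjusted p 0.000145). Etv2 rose by 2.02 ± 0.49 (adjusted p 0.00342), Lmo2 by 1.65 ± 0.43 (adjusted p 0.00618) and Kdr by 2.17 ± 0.43 (adjusted p 0.000706). Flt1 fell by 1.44 ± 0.30 (adjusted p 0.0011). With the line as a replicate block Etv2 no longer passed (1.42, adjusted p 0.0907), and Lmo2 no longer passed without KO day 4 replicate 2 (adjusted p 0.057).

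Over the whole span from day 3 to day 5, 6 of the 10 genes rose in KO, against 11.4% of all genes in that direction. They were Kdr (5.97 ± 0.39), Tal1 (4.09 ± 0.63), Cdh5 (2.41 ± 0.62), Sox18 (2.08 ± 0.75), Etv2 (1.27 ± 0.34) and Runx1 (1.16 ± 0.19). Sox18 rested on 12 counts over 4 libraries on day 3 and 23 counts over 3 libraries on day 5, and its call (adjusted p 0.0212) was lost without any of 4 libraries, namely KO day 5 replicates 1 and 3 and KO day 3 replicates 2 and 3. Cdh5 was at 0.0655 to 0.380 CPM on day 3 and 0.731 to 1.31 CPM on day 5, without overlap (adjusted p 0.00178).

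In WT the same span had the opposite balance: 5 of the 10 passed, 1 higher and 4 lower, against 15.4% of all genes. Kdr rose by 2.41 ± 0.43 (adjusted p 6.59e-05), from 0.525 to 1.73 CPM to 2.73 to 8.57 CPM, so the receptor was not confined to KO. Runx1 fell by 1.62 ± 0.21 (adjusted p 2.96e-07), Pecam1 by 1.61 ± 0.36 (adjusted p 0.000639), Flt1 by 1.20 ± 0.24 (adjusted p 0.000351) and Lmo2 by 1.13 ± 0.35 (adjusted p 0.0108). The Lmo2 call was lost with the line as a replicate block (-1.22, adjusted p 0.0943), and that fit added Tek (-1.03, adjusted p 0.0367). Without WT day 5 replicate 1 or 2 the Flt1 and Lmo2 calls were lost, and that of Lmo2 also without WT day 3 replicate 1.

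The change of the KO effect from day 3 to day 5 was tested directly, and 5 of the 10 genes passed, all higher on day 5, against 5.17% of all genes in that direction. Tal1 (4.14 ± 0.95, adjusted p 0.00178), Kdr (3.56 ± 0.61, adjusted p 0.000119), Runx1 (2.78 ± 0.28, adjusted p 2.63e-08), Etv2 (1.94 ± 0.51, adjusted p 0.00617) and Tek (1.28 ± 0.45, adjusted p 0.0394) differed between the days. For Runx1 and Tek this change ran from a lower level in KO on day 3. The Tek call did not survive leaving out 8 of its libraries in turn, with adjusted p values up to 0.173.

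In MUT cells, none of the 10 genes passed on day 3, where 0.148% of all genes passed in either direction. By edgeR, 2 of the 10 and 1272 of all 21601 genes had an unadjusted p under 0.05. The 2 were Etv2, with 0.780 and 0.933 CPM against 2.21 CPM in WT70 (-1.35, adjusted p 0.62), and Tek, with 2.00 and 1.78 CPM against 3.64 CPM (-0.95, adjusted p 0.836). DESeq2 likewise called none of the 10.

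On day 5 Kdr and Flt1 were higher in MUT than in WT70, 2 of the 10 genes, against 1.21% of all genes in that direction. Kdr was at 13.3 and 13.6 CPM in CM59 and CM69 and at 2.78 CPM in WT70, a log2 fold change of 2.27 ± 0.61 (adjusted p 0.0407). Flt1 was at 39.8 and 39.5 CPM against 9.90 CPM, a log2 fold change of 2.00 ± 0.42 (adjusted p 0.00889). The 2 MUT clones were close to each other in both receptors.

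The control of this comparison is 1 library, assumed to vary like the libraries of the other groups. Without CM59 or CM69 the Kdr call was lost (2.30, adjusted p 0.106, and 2.26, adjusted p 0.117). Against WT7 and WT34, which belong to the other experiments, Kdr was again higher (1.63, adjusted p 0.00651), and Flt1 lay just under the fold limit (0.99, adjusted p 0.0157). Genotype and experiment cannot be told apart in that second comparison.

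None of the factors passed in MUT on day 5. Etv2 was at 0.688 and 0.673 CPM on day 5 against 2 counts in WT70, a ratio of 6.12 with a counting interval of 1.54 to 53.1 (adjusted p 0.0905), and against WT7 and WT34 the difference was 0.11 (adjusted p 0.927). Tal1 was at 0.477 and 0.577 CPM (0.223 in WT70), Lmo2 at 0.371 and 0.818 CPM (0.779 in WT70) and Runx1 at 4.24 and 3.51 CPM (1.84 in WT70). For Runx1 the log2 fold change of 1.07 had a 95% interval of 0.38 to 1.77, which does not hold 0, but its adjusted p was 0.0822. For Sox18, 6 and 14 counts stood against 1 count in WT70, a ratio of 9.06 with a counting interval of 1.45 to 376.

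Cdh5 depended on the control. It was at 1.43 and 1.15 CPM in MUT on day 5 and at 2.67 CPM in WT70, the highest of the 24 libraries, for a log2 fold change of -1.04 (adjusted p 0.605). Against WT7 and WT34 the sign turned, to 2.22 (adjusted p 0.0187) on day 5 and from -0.27 to 2.11 (adjusted p 0.0454) on day 3. All 6 libraries of experiment 3 were at 0.679 CPM or above, and all 9 WT7 and WT34 libraries at 1.13 CPM or below. Tek gained a call on day 5 against WT7 and WT34 (1.01, adjusted p 0.0418).

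Within MUT from day 3 to day 5, 3 of the 10 passed, against 17.3% of all genes. Kdr rose by 3.27 ± 0.49 (adjusted p 9.97e-06), and Lmo2 fell by 1.25 ± 0.43 (adjusted p 0.0211) and Pecam1 by 1.02 ± 0.39 (adjusted p 0.0416). The Lmo2 call was lost without CM59 or CM69 day 3, or CM59 day 5, and the Pecam1 call without any 1 of the 4 libraries, whereas Kdr passed with each of the 4 left out. On the log2(TPM + 1) scale Kdr fell under the fold limit (0.93, adjusted p 0.000206). Flt1 stood at 39.1 and 36.1 CPM on day 3 and 39.8 and 39.5 CPM on day 5 (0.08, 95% interval -0.54 to 0.69).

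The difference between the KO effect and the MUT effect was tested on both days. On day 3 none of the 10 genes passed, against 0.412% of all genes in either direction. By edgeR 2 of the 10 and 1760 of all 21601 genes had an unadjusted p under 0.05. The 2 were Etv2 (1.40, adjusted p 0.517) and Runx1 (-0.83, adjusted p 0.489), and DESeq2 called none.

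On day 5, 1 of the 10 passed, against 1.13% of all genes in that direction. It was Lmo2, for which the KO effect exceeded the MUT effect by 2.42 ± 0.66 (adjusted p 0.0255). The call was lost without WT day 5 replicate 1 (2.29, adjusted p 0.0565), WT day 5 replicate 2 (2.08, adjusted p 0.059) or MUT day 5 replicate 1 (1.99, adjusted p 0.127). It was also lost without the filter on low counts (2.44, adjusted p 0.0507), on the log2(TPM + 1) scale (1.67, adjusted p 0.13) and in a fit of the compared libraries alone (2.53, adjusted p 0.105), and it rests on 14 counts in WT70.

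For Kdr the KO effect exceeded the MUT effect by 1.58 (95% interval 0.17 to 2.99, adjusted p 0.22), a difference that missed the p limit but passed without WT day 5 replicate 3 (2.41, adjusted p 0.00874), without the filter on low counts (1.60, adjusted p 0.00132) and on the log2(TPM + 1) scale (1.49, adjusted p 0.000917). For Cdh5 it was 2.51 (95% interval 0.49 to 4.53, adjusted p 0.157), and 2.50 (adjusted p 0.0355) in a fit of the compared libraries alone. For Flt1 the difference was -0.87 (95% interval -1.86 to 0.13, adjusted p 0.395), for Tal1 1.92 (-1.01 to 4.84) and for Runx1 0.74 (-0.07 to 1.55). The last 3 intervals hold 0, and that of Tal1 also holds differences of many fold, so whether the 2 genotypes differ in these genes is not settled by these libraries.

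The wider pathways were read from 3 lists drawn up with the 10 genes left out. Their counts stand beside the shares of all genes. In KO versus WT on day 5, 5.95% of all genes passed as higher and 11.7% in either direction. On day 4, 3.39% passed as higher, and on day 3, 3.92% in either direction. The same shares apply to the tissue lists further below. Of 15 genes of the VEGF and angiopoietin pathway, 6 were higher and none lower in KO on day 5 (median log2 fold change 0.76, against -0.01 over all genes). Nrp1, a VEGF co-receptor, was at 59.5, 42.4 and 30.0 CPM in KO and at 0.681, 1.70 and 6.00 CPM in WT, a difference of 4.35 ± 0.51 (adjusted p 4.45e-07). Plxnd1, a semaphorin receptor of endothelium, was at 41.0, 49.8 and 46.1 CPM against 11.1, 10.3 and 20.3 CPM (1.72, adjusted p 5.6e-08).

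The ligand gene Pgf, whose product binds FLT1, was at 7.44, 4.74 and 18.2 CPM against 1.97, 1.62 and 1.42 CPM (2.39, adjusted p 2.72e-06), and the angiopoietin genes Angpt2 (3.92, adjusted p 8.82e-06) and Angpt1 (2.12, adjusted p 0.0113) and the ligand gene Vegfc (1.20, adjusted p 0.00202) completed the 6. Plcg1, which carries the signal of KDR into the cell, differed by 0.76 ± 0.08 (adjusted p 1.09e-08), under the fold limit. On day 4, 2 of the 15 were higher (Plxnd1 1.69 and Nrp1 2.39) and 2 lower, namely Vash1, an inhibitor of angiogenesis (-1.11), and Vegfc (-1.20). On day 3, 1 of the 15 passed, Vash1 (-1.08, adjusted p 0.000845).

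Of 26 other endothelial genes, 24 were tested, and 7 were higher and 2 lower in KO on day 5 (median 0.71). Vwf, the von Willebrand factor gene, was at 13.8, 10.0 and 8.99 CPM in KO and at 0.757, 0.695 and 1.48 CPM in WT (3.53 ± 0.35, adjusted p 6.48e-09). Aplnr, the apelin receptor gene, which early mesoderm expresses as well, was at 344 and 332 CPM in KO on day 4 against 35.8 and 38.0 CPM in WT (3.20, adjusted p 0.00012). Its day 5 difference of 2.22 (adjusted p 0.000448) was smaller, and WT replicate 3, at 70.7 CPM, lay near the KO libraries (73.6, 97.7 and 97.2 CPM) while the other 2 WT libraries were at 7.27 and 7.73 CPM.

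The ETS genes Elk3 (1.83), Fli1 (32 against 3 counts, a ratio of 10.3 with a counting interval of 3.21 to 52.4) and Erg (16 against 2 counts, 7.70 with an interval of 1.81 to 69.0), Sox7 (1.34) and Rasip1 (1.02) completed the 7. The caveolar gene Plvap (-1.67) and the TGF-beta co-receptor gene Eng (-1.31), both known in vessel endothelium, were lower. Egfl7 (0.74, adjusted p 4.96e-06) and Ets2 (0.64, adjusted p 6.97e-06) were under the fold limit. On day 3, 2 of the 24 were higher (Aplnr 3.42 and Fli1, on 17 against 1 count) and 3 lower (Ecscr -1.22, Notch4 -1.01 and Nos3 -1.06).

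Of 26 other blood genes, 15 were tested, and 4 were higher and 2 lower in KO on day 5 (median 0.20). Gata1, the factor of red cells and platelets, appeared on day 4, at 15.5 and 13.5 CPM in KO against 0.371 and 0.0704 CPM in WT (6.01 ± 0.81, adjusted p 4.56e-06). On day 5 it was at 7.91, 9.54 and 2.72 CPM against 0.757, 0.232 and 2.90 CPM (2.50, adjusted p 0.00103), so in experiment 2 the WT library was slightly above the KO library.

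Gata2, a factor of blood progenitors that other lineages share, was at 17.9, 20.3 and 4.78 CPM in KO on day 5 and at 4.85, 3.94 and 0.135 CPM in WT (2.37, adjusted p 0.000886), lower in experiment 2 for both genotypes. Epor, the erythropoietin receptor gene, was at 3.26, 2.67 and 5.15 CPM against 0.454, 0.541 and 2.43 CPM (1.73, adjusted p 0.000437). Kit, a receptor gene that ESCs and germ cells also express, was at 61.5 to 66.6 CPM against 27.7 to 41.4 CPM and lay just under the fold limit (0.96, adjusted p 2.92e-08).

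In the other direction, Myb, a factor of definitive blood progenitors that ESCs express too, was at 1.40, 1.78 and 1.22 CPM in KO and at 15.3, 15.1 and 7.96 CPM in WT (-3.08, adjusted p 4.2e-08), and Ikzf1 was lower on 11 against 45 counts. Nfe2, the other gene that was higher, had 13 counts in KO and 0 in WT, at least 4.17-fold higher against a floor of 3 counts over the group. Spi1, the myeloid factor PU.1, had 0 counts in KO on day 4 against 7 in WT, at least 2.33-fold lower against the same floor. Embryonic and adult globin genes were absent or at single counts, and the pan-leukocyte gene Ptprc had no count in KO or WT on day 5. In all, 9 of the 26 were at 0 in KO and 10 in WT.

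**Figure D4:**
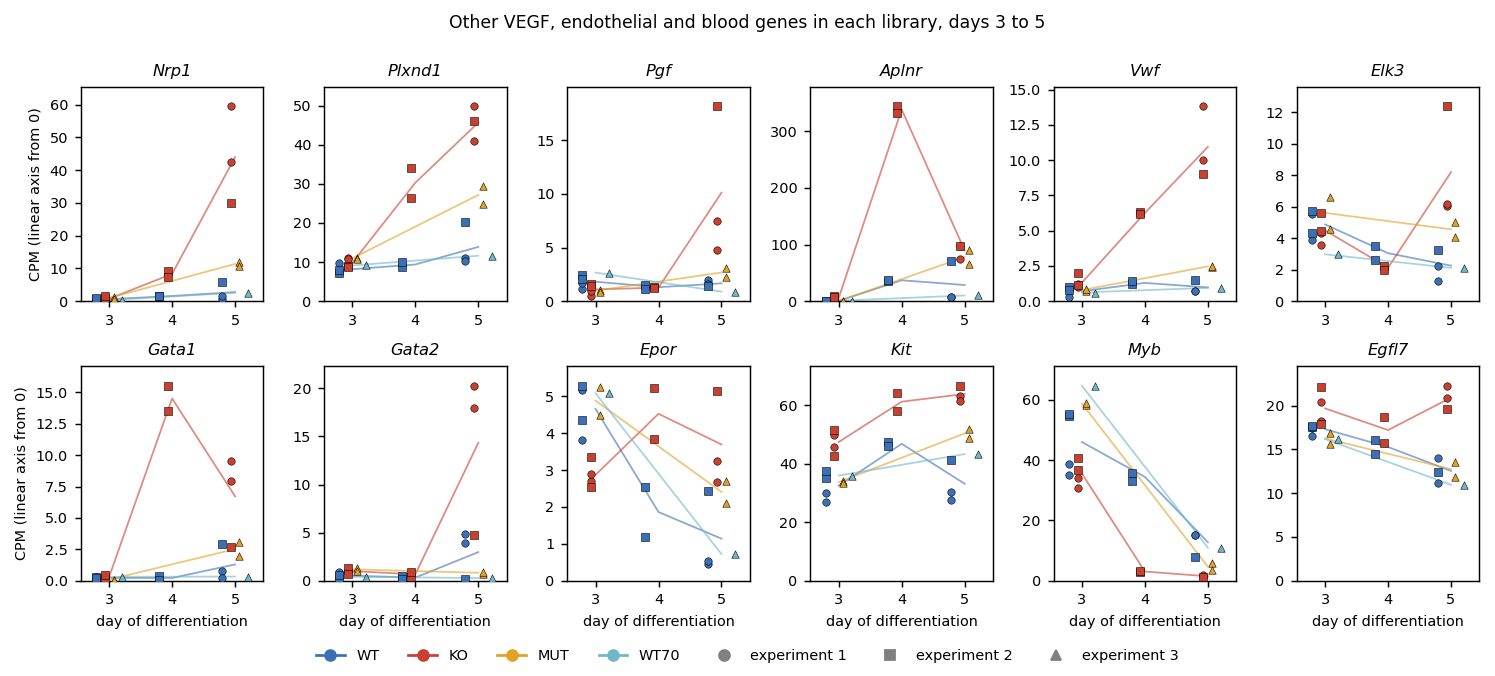
Level in CPM (linear axis from 0) of 12 genes of the 3 pathway lists on days 3 to 5, with 1 point per library, the colour giving the genotype, the marker the experiment and the line the group mean. Gata1 and Aplnr peak on day 4 in KO (13.5 to 15.5 and 332 to 344 CPM), Nrp1, Vwf and Gata2 on day 5, and Myb is at 2.73 and 3.38 CPM in KO on day 4 and at 1.22 to 1.78 CPM on day 5.

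In MUT on day 5, 1 of the 15 VEGF and angiopoietin genes (Plxnd1, 29.5 and 24.8 CPM against 11.6 CPM, 1.22, adjusted p 0.0174), 2 of the 24 other endothelial genes (Sox7, 2.78, and Aplnr, 2.95) and none of the 15 blood genes were higher than in WT70, and none of the lists had a lower gene. Gata1 was at 3.07 and 1.97 CPM in MUT against 0.334 CPM and did not pass (adjusted p 0.113). Of the list genes, Vwf (2.15) and Vegfc (1.64) passed with a larger KO effect than MUT effect, and Myb (-1.84) with a smaller one. These calls lay near the p limit and rest on 1 WT70 library. List genes were not refitted under other settings or with libraries left out.

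Markers of other tissues differed between the genotypes as well, and their part in the results above was not tested. On day 5, 11 of 11 cardiac genes were higher in KO, with a summed level of 234 to 413 CPM against 19.3 to 26.9 CPM in WT, 36.4 to 37.8 CPM in MUT and 15.1 CPM in WT70. Of 12 genes of nascent and lateral plate mesoderm 8 were higher (442 to 602 CPM against 63.2 to 184 CPM), and of 9 definitive endoderm genes 8 (1013 to 1485 CPM against 279 to 345 CPM). Of 10 neural progenitor genes 8 were lower and 1 higher (180 to 401 CPM against 492 to 626 CPM).

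On day 4 the mesoderm list (8 of 12 higher, 709 to 735 CPM against 128 to 153 CPM), the endoderm list (7 of 9 higher) and the neural list (8 of 10 lower) already differed, and 3 of 11 cardiac genes were higher. In MUT on day 5, 1 mesoderm, 2 cardiac and 3 endoderm genes were higher than in WT70 and 2 neural genes lower, with a summed mesoderm level of 270 to 273 CPM against 124 CPM. None of the cardiac, mesoderm, endoderm and neural lists had a gene at 0 in KO or WT on day 5. Of 10 fibroblast and mural genes 3 were higher and 3 lower (198 to 208 CPM against 248 to 396 CPM). Of 8 genes of visceral and yolk sac endoderm, the tissue beside the blood islands, 6 were tested and 2 were higher (16.1 to 63.5 CPM against 7.42 to 31.2 CPM). None of 5 tested macrophage genes passed (3.28 to 8.84 CPM against 4.59 to 13.1 CPM), with 1 of 6 at 0 in WT.

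Across the 24 libraries of days 3 to 5, the 10 genes did not follow 1 common course. The closest pair on the log2 CPM scale was Etv2 and Runx1 (Pearson's r = 0.74), followed by Lmo2 and Pecam1 (r = 0.69) and Sox18 and Kdr (r = 0.67), and the least alike were Cdh5 and Pecam1 (r = -0.49). Of the other genes that reached 5 CPM in some group, Shh (r = 0.97), Fzd1 (0.96) and Ppp3ca (0.96) were most like Kdr, Tnc (0.94), Rbfox2 (0.89) and Chpt1 (0.84) most like Tal1, Myh6 (0.85), Alpk3 (0.81) and Cpne8 (0.80) most like Etv2, and Car2 (0.92), Ptpn9 (0.91) and Ifngr1 (0.89) most like Flt1. For Runx1 they were Wasf2 (0.91), Dsc2 (0.91) and Mau2 (0.89), for Lmo2 Arid2 (0.85), Slc4a5 (0.82) and Hivep2 (0.82), and for Pecam1 Taf1c (0.89), Ppil4 (0.88) and Dhx33 (0.87). These values are a description, since the libraries share lines, days and experiments.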

How the data were processed

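The deposited tables hold 36 libraries, of which the 24 of days 3 to 5 enter the comparisons. The authors trimmed reads with Trim Galore 0.6.4, quantified transcripts with Salmon 0.14.1 against the GENCODE M23 annotation of mm10 and summed them to genes with tximport. The expected counts were deposited without normalization by the authors. The TPM values were deposited by the authors beside them and carry no depth of their own. Of the deposited counts 73.8% were exactly whole, and the rest were rounded before testing. No column of another series was found.

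Counts were tested with edgeR 4.0.16 (R 4.3.3) by its robust quasi-likelihood test on TMM-scaled libraries, over the 21601 genes that filterByExpr kept at a minimum count of 10 and a total of 15. The model held 16 group means and a term for experiment 2, which left 19 residual degrees of freedom, and p-values were adjusted by Benjamini-Hochberg over all genes. Standard errors come from the F statistic, and 95% intervals from its degrees of freedom. Counting intervals and floors of 3 counts cover counting error only. Named genes were the 10 members, the 4 genes of each pathway list with the smallest p in KO versus WT on day 5 and on day 4, and for each member that passed on these days the 3 genes most like it. Other list genes that passed are named as well, chosen after their values were seen. The scripts were tested on simulated data. Alternatives were DESeq2 1.42.0, limma 3.58.1 on log2(TPM + 1), other scalings, filters, fold limits, models and controls, and each library left out. The same lines were used on the days compared, so most libraries pair by line, although experiment 2 held no day 5 library of KO15 or WT34. The line differences of 2 days correlated at r = 0.011 to 0.074 over 21601 genes. The 10 genes, the lists and the tests were chosen with earlier results of these data known. Gene models of overlapping or antisense transcripts were not separated by strand here.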

Additional observations from a re-analysis of the deposited data

Results flagged for a closer look

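In the 4 WT libraries of day 3, the lowest library for Tal1 (replicate 3, WT7 of experiment 2, at 0.225 CPM) lay apart from the other libraries (0.480 to 0.503 CPM). The gap of this library to the nearest one was 0.917 of the range, above Dixon's 95% limit for a group of 4. It rests on few counts, 30 for Tal1 over the 4 libraries. Of 20 groups of 4 libraries examined this was the only such case, and chance gives about 1 in 20.

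The KO effect of Lmo2 on day 5 exceeded its MUT effect by 2.42 on the log2 scale (edgeR, adjusted p 0.0255). The KO effect changed between day 3 and day 5 for Tal1 (4.14), Kdr (3.56), Runx1 (2.78), Etv2 (1.94) and Tek (1.28), as tested by an interaction term.

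Days 0 to 2 enter no comparison of the report. On day 2 Lmo2 was at 4.62 and 4.74 CPM in KO and at 1.87 and 2.09 CPM in WT, a ratio of means of 2.37 that was not tested. Every KO library lay above every WT library in 6 of 30 pairs of gene and day, and this pair was picked for its ratio beyond 2. The share of all genes with such an order was not counted, so the 6 pairs are no result about these genes.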

How the results depend on the processing

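The number of the 10 genes that passed stayed within 1.5 times in 89 of 106 cases under other settings and in 70 of 83 with a library left out. With a fold limit of 1.5 it was 0 (in place of 2) for KO versus WT on day 3, 3 (of 5) for WT day 5 versus day 3 and 1 (of 3) for MUT day 5 versus day 3. Without the experiment term it was 1 (of 2) for MUT on day 5. On log2(TPM + 1), a scale that shrinks folds of low genes, it was 0, 1 and 2 (of 2, 2 and 7) for KO versus WT on days 3, 4 and 5, 0 (of 2) for MUT on day 5, 1, 1 and 0 (of 5, 6 and 3) for day 5 versus day 3 in WT, KO and MUT, 2 (of 5) for KO day 5 versus day 4 and 2 (of 5) for the change of the KO effect. Experiment 2 alone gave 1 (of 2) on day 3 and 3 (of 7) on day 5, and Flt1 turned to -0.0907 there. The fit on log2(TPM + 1) kept only genes at 1 TPM or more in at least 2 libraries. Tal1, Cdh5 and Sox18 were not kept, so their calls were untested there and count as not passing. Lines summed over experiments gave 1 (of 2) on day 3. With WT7 and WT34 as the control of MUT, 1 gene (in place of 0) passed on day 3, and Cdh5 turned to 2.11 on day 3 and 2.22 on day 5. The cause was not tested for any of these. With 1 library left out, the number ranged from 0 to 3 for KO versus WT on day 3, 0 to 2 for the KO effect minus the MUT effect on day 5, 3 to 6 for WT day 5 versus day 3 and 1 to 2 for MUT day 5 versus day 3, and it was 1 for MUT on day 5. With the line as a replicate block it was 5, 4, 4, 5 and 3 for WT day 5 versus day 3, KO day 4 versus 3, day 5 versus 4 and day 5 versus 3, and MUT day 5 versus day 3. The block changed no other call than those given in the report, except that its filter left out Sox18 in KO day 5 versus day 3.

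Over all genes, the number past the threshold moved most for MUT. It was 32 on day 3 (13 with a library left out, 653 against WT7 and WT34) and 390 on day 5 (150 on the TPM scale, 1839 against WT7 and WT34), and 89 (44 to 419) and 769 (351 to 998) for the KO effect minus the MUT effect. For KO versus WT it was 846, 1656 and 2517 on days 3, 4 and 5 against 255, 770 and 983 on the TPM scale. The lone WT70 libraries could not be left out. Sox18, Cdh5, Etv2 and Tal1 are limited by depth, with 0 to 55 counts a library on days 3 to 5.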

Other observations

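Before day 3 the 10 genes had levels of their own. Pecam1, the adhesion molecule that ESCs carry, was at 63.1 and 63.2 CPM in KO and at 50.3 and 47.4 CPM in WT on day 0, at 36.3 to 57.6 CPM on day 1 and at 11.7 to 15.2 CPM on day 2. Tek was at 6.48 to 7.43 CPM on day 0 and at 2.68 to 4.70 CPM on day 1. Flt1, the VEGF receptor that acts as a ligand trap, was at 3.36 to 7.93 CPM on day 0, at 3.75 to 4.46 CPM on day 1 and at 18.5 to 23.5 CPM on day 2, in both genotypes. Kdr, in contrast, was at 0.906 CPM or below in every library of days 0 to 2. Lmo2 was the 1 member for which both KO libraries lay above both WT libraries on each of days 0, 1 and 2, with ratios of means of 2.07, 1.39 and 2.37. These days hold 2 libraries per genotype and were not tested, and how many of all genes had this order on each day was not counted.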
